A study of Mus musculus with 32 samples.

Results

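The knockout LPS course from 6 to 20 h set the livers of E2f1 knockout mice collected 20 h after lipopolysaccharide (LPS, a cell wall molecule of Gram-negative bacteria) against those collected 6 h after it. Its members are the arrays titled E2F1 with 6 h of LPS (4) and with 20 h of LPS (6), which makes 10 of the 32 arrays of the series. All 10 came from mice labelled E2F1-/-, with a strain label that joins B6, 129 and the E2F1 deletion, and all 10 mice had received LPS systemically, so both groups share the deletion and the agent and differ by the time of collection. The wild-type course, used for comparison, held 4 arrays at 6 h and 6 at 20 h from mice labelled E2F1+/+ on the strain B6x126 F2. Because the strain label differs along with the genotype, the deletion and the strain background cannot be told apart in any comparison between knockout and wild type. Saline mice (6 knockout and 6 wild type) are labelled 20 h, and their levels are given beside the course without a test. Each array held liver RNA of 1 mouse. The dose, the sex and the age of the mice, and the part of E2f1 that is deleted, are not stated in the sources used here.

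LPS is sensed by the Toll-like receptor TLR4 with CD14 and MD-2. One branch of the signal, through MyD88, activates NF-kB and early cytokine genes such as Tnf. The other, through TRIF, induces type I interferon, which acts back on the cells through its receptor to switch on antiviral genes. Hepatocytes answer the resulting cytokines over the following hours by making acute-phase proteins and by lowering the transcripts of bile acid, steroid and drug metabolism. E2F1 is a transcription factor known for driving the genes of DNA replication and entry into the cell cycle.

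The promoters below carry the letters searched for in gene groups that the results turn on. They were taken from RefSeq (mouse build GRCm38.p6) and run 5′ to 3′ on the strand of the gene, with every match in capitals. Ifit1 and Ifit3 stand for the interferon-stimulated genes and hold GAAA and GAAA separated by any 2 bases, the core of the interferon-stimulated response element, as its reverse complement. The Ifit1 stretch lies at chr19:34640765-34640833 on the plus strand, −124 to −56 bases from the start of transcription.
Ifit1: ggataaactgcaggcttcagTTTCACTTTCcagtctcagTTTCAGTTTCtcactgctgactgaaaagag
The Ifit3 stretch lies at chr19:34583353-34583436 on the plus strand, −176 to −93 bases from the start.
Ifit3: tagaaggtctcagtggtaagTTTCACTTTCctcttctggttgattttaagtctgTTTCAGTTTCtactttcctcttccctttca
Hspa5 and Pdia6 stand for the unfolded protein response, whose course was compared with that of wild type, and hold the ER stress element, CCAAT and CCACG separated by any 9 bases. The Hspa5 stretch lies at chr2:34772005-34772063 on the plus strand, −85 to −27 bases from the start.
Hspa5: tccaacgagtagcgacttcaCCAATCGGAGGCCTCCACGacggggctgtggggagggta
The Pdia6 stretch lies at chr12:17266471-17266529 on the plus strand, −118 to −60 bases from the start.
Pdia6: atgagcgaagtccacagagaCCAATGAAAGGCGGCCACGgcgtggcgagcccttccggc
Mcm5 and Mcm7 are replication genes that rose, and are shown because they hold TTTNNCGC, letters known from E2F sites. For Mcm2, Mcm3, Cdt1 and Gins2, which also rose, no match was found, although some replication genes had no promoter sequence to search. In Mcm5, at chr8:75109336-75109387 on the plus strand and −173 to −122 bases from the start, the 2 matches overlap on opposite strands.
Mcm5: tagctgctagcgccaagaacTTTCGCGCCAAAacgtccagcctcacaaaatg
The Mcm7 stretch lies at chr5:138172021-138172068 on the minus strand, −185 to −138 bases from the start, and its match is the reverse complement of the letters.
Mcm7: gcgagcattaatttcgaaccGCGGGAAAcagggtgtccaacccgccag

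Each set of letters was searched on both strands in the 250 bases before the start. The interferon letters stood in 16 of the 30 measured interferon-stimulated genes with a promoter sequence (53.3%), against 3.46% of all 27025 promoters. Among the members that changed without replicate 1 at 6 h it stood in 6 of 14 (42.9%). The ER stress element stood in 6 of 23 unfolded protein response genes (26.1%), against 0.13% of all promoters, and in 0 of the 5 members that changed in knockouts. TTTNNCGC, which was added to the search after the files had been read, stood in 8 of 27 replication genes (29.6%), in 3 of the 12 that changed (25.0%) and in 4.94% of all promoters. A match is a description of the letters, not of a bound site.

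Before any comparison, 3 of the knockout arrays stood apart from their labels. Each array was given a response score per time point, on which the wild-type saline mean is 0 and the wild-type LPS mean of that time is 1. KO LPS 6 h replicate 1, as labelled, scored 0.13 at 6 h and 0.12 at 20 h, against 0.90 to 0.98 and 0.62 to 0.70 in the other 3 of its group, and it correlated with the knockout saline mean at 0.982 and with the mean of the others of its own group at 0.927 (18868 genes). The library with the label KO LPS 20 h replicate 4 had a 20 h score of 0.36, against 0.96 to 1.06 in the other 5. The library labelled KO saline replicate 1, which shares a slide with KO LPS 6 h replicate 1, reached 0.88 on the 6 h score and is left out of the saline ranges given here. Most counts of the course are given with all arrays and without KO LPS 6 h replicate 1. Many single-gene values are given in 1 setting only. Of 106 named genes called with all arrays, 104 were also called without that replicate. This number is favoured by the choice, because list members and ranked genes were named only if both fits called them. Over all genes, 2484 of the 2992 calls with all arrays were kept. Leaving out KO LPS 20 h replicate 4 as well was chosen after seeing the data.

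Depth differed by scan date, with 20203 to 28366 of 43379 spots well above background on the 10 arrays and a 75th percentile of the signal between 394 and 774. The spots well above background numbered 26588 to 28366 on the first of 3 scan dates, 20203 to 22944 on the second and 23092 to 24995 on the third. The tissue is labelled liver, while 1 protocol text names another organ. Alb, made by hepatocytes, stood 9.53 to 10.73 log2 units above the 75th percentile, and the summed level of the 4 measured lung epithelium markers lay between −1.46 and 0.58 on the 10 arrays. E2f1 itself was read by a probe at the 3′ end of the gene, which does not check the deletion when its extent is not known. It measured −2.38, −2.16, −1.65 and −3.01 at 6 h (log2 above the 75th percentile, the scale of all levels here), and −4.04 at lowest, −2.09 at the median and −0.23 at highest at 20 h. The groups overlapped, and the change from 6 to 20 h was 0.25 ± 0.62 (log2 ± SE, limma adjusted p = 0.841). The other E2f1 probe gave −0.29.

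Between 6 and 20 h many transcripts of steroid, bile acid, drug and amino acid metabolism fell in the knockout liver, with either set of arrays. Interferon-stimulated genes fell in 3 of 39 members with all arrays and in 19 without KO LPS 6 h replicate 1. With all arrays, 2992 of 19226 genes changed (15.6%), 1391 upward (7.23%) and 1601 downward (8.33%), by limma at a Benjamini-Hochberg adjusted p under 0.05. Without KO LPS 6 h replicate 1 the counts were 3643 (18.9%), 1913 (9.95%) and 1730 (9.0%). These shares of all genes are the background for the list counts below. In both settings 2484 genes changed in the same direction (1226 rose and 1258 fell), and 0 in opposite directions. Every 20 h array lay on the same side of every 6 h array for 1101 genes with all arrays (5.73%; 2.46% higher and 3.27% lower at 20 h) and for 3065 without replicate 1 at 6 h (15.9%; 8.33% higher and 7.61% lower). Leaving out KO LPS 20 h replicate 4 as well gave 4419 genes (23%). Those 10 arrays came from 3 scan dates, as the scanner files record them. Within the first date (1 array at 6 h, 2 at 20 h) 1800 genes changed and within the second (2 and 2) 1862, where a lone array is assumed to vary like the other groups. Within the third, where KO LPS 6 h replicate 1 is the only array at 6 h, limma called 0 genes and 1486 had an unadjusted p under 0.05.

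The arrays were also placed on the wild-type course, where 0 is the mean of wild-type 6 h and 1 that of wild-type 20 h, over the 6578 genes that changed between these wild-type groups. The knockout 6 h arrays stood at 0.47, 0.24, 0.20 and 0.19, and the 20 h arrays at 0.63 at lowest, 0.95 at the median and 0.98 at highest. The groups did not overlap. The means were 0.276 ± 0.133 (SD, n = 4) and 0.855 ± 0.169 (SD, n = 6), 0.579 apart (two-sided exact permutation test, p = 0.00476, the smallest that these group sizes allow). Without KO LPS 6 h replicate 1 they were 0.645 apart (exact permutation p = 0.0119, again the smallest possible). KO LPS 20 h replicates 4 and 6 (0.63 and 0.65) stood between the groups. Saline arrays of both genotypes, without KO saline replicate 1, stood at 0.48 to 0.54 on this axis, beside KO LPS 6 h replicate 1 (0.47). A middle position is thus not by itself a stage between 6 and 20 h.

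**Figure D1:**
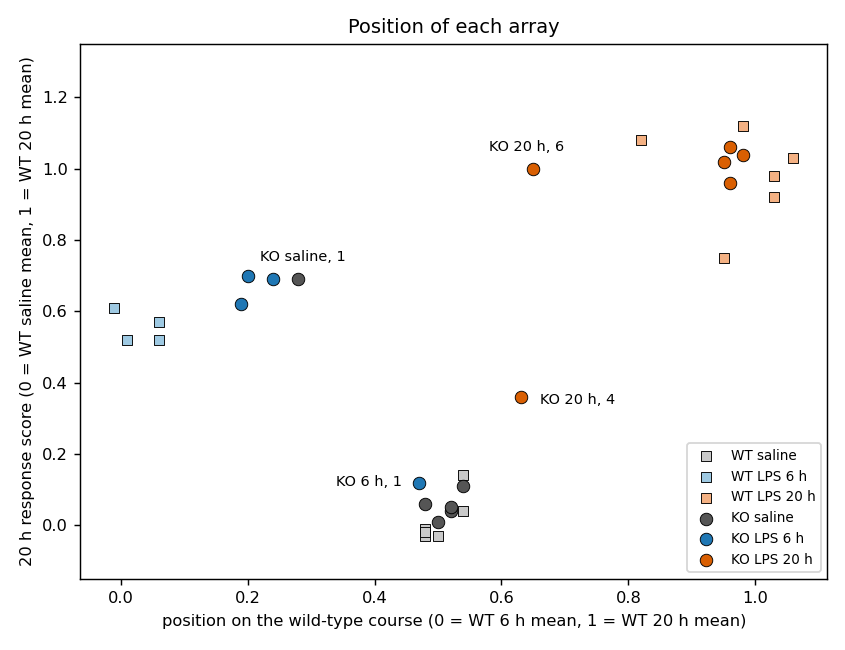
Position of all 32 arrays: the horizontal axis is the position on the wild-type course (0 = wild-type 6 h mean, 1 = wild-type 20 h mean) and the vertical axis the 20 h response score (0 = wild-type saline mean, 1 = wild-type 20 h mean), with circles for knockout and squares for wild type. KO LPS 6 h replicate 1 (0.47, 0.12) lies beside the saline arrays, KO LPS 20 h replicate 4 (0.63, 0.36) between saline and the other 20 h arrays, and KO saline replicate 1 (0.28, 0.69) beside the other 6 h arrays.

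By the medians of the arrays without KO LPS 6 h replicate 1, all 39 measured interferon-stimulated genes lay above the saline range at 6 h, and at 20 h 36 were still above it and 3 within it. Of the 39 members 3 fell, beside 8.33% of all genes, and 0 rose with all arrays (median log2 change −1.04, against −0.05 over all genes). Without KO LPS 6 h replicate 1, 19 fell and 0 rose (median −2.30, against −0.03). Ifit1, whose protein binds foreign RNA, measured 0.42, 6.74, 7.36 and 7.64 at 6 h, and 0.14, 1.75 and 3.89 at the lowest, median and highest of 20 h. The first of the 6 h values, replicate 1, lay inside the 20 h range and just above the saline range (−1.39 to 0.05), and the other 3 stood clear of every 20 h array. Ifit1 fell by 3.68 ± 1.19 with all arrays (adjusted p = 0.0337) and by 5.38 ± 1.07 without replicate 1 (adjusted p = 0.000823, 41.7-fold).

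Eif2ak2, which encodes the kinase PKR that stops translation on sensing double-stranded RNA, measured 0.41, 3.87, 5.45 and 5.55 at 6 h and 1.23, 1.44 and 1.67 at the lowest, median and highest of 20 h. It fell by 2.37 ± 0.73 (adjusted p = 0.0257), and by 3.51 ± 0.62 without replicate 1 (adjusted p = 0.000281). The 6 arrays at 20 h lay close together, above 6 h replicate 1 and below the other 3. Ddx58, the RNA sensor RIG-I, fell by 2.50 ± 0.60, and by 3.39 ± 0.52 without replicate 1. Without that array the falls included Ifit3 by 4.13 ± 0.96 (adjusted p = 0.00317) and the antiviral enzyme viperin, Rsad2, by 4.38 ± 1.28 (adjusted p = 0.0159). With all arrays their adjusted p were 0.0872 and 0.176.

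Other members did not pass in either setting. Irf7, which amplifies interferon production, measured 0.16, 4.59, 5.22 and 5.08 at 6 h and 3.52 to 4.98 at 20 h, a change of −0.71 ± 0.70 without replicate 1 (adjusted p = 0.534) and of 0.49 with all arrays. Cxcl9, a chemokine induced by interferon gamma, measured 3.33, 7.56, 7.95 and 7.95 at 6 h and 6.57 to 8.22 at 20 h, and changed by −0.34 ± 1.02 without replicate 1 (adjusted p = 0.862) and by 0.78 with all arrays. The guanosine triphosphatase gene Iigp1, the brightest member that did not pass, changed by −1.02 ± 0.55 (adjusted p = 0.21).

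Cytokine and chemokine transcripts changed less uniformly. Of 16 cytokines 2 fell with all arrays and 5 without replicate 1 (median −0.16 and −0.81), and 0 rose. Of 24 chemokines 3 and 4 fell (median −0.42 and −1.11), and 0 rose. Among all genes 8.33% fell with all arrays and 9.0% without replicate 1. Tnf measured −5.16, 0.12, 0.63 and 0.73 at 6 h, and −3.23, −2.42 and −1.65 at the lowest, median and highest of 20 h. Replicate 1 was below every 20 h array and the other 3 were above every 20 h array. Tnf changed by −1.44 ± 0.95 with all arrays (adjusted p = 0.337) and fell by 2.86 ± 0.84 without replicate 1 (adjusted p = 0.0161).

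Il1b, the other early pyrogenic cytokine, had the same layout and fell by 2.57 ± 0.80 without replicate 1 (adjusted p = 0.0235), with an adjusted p of 0.409 with all arrays. Il6, which drives the acute-phase response of hepatocytes, measured −3.93, 0.37, 0.67 and 0.45 at 6 h, and 5 of its 6 values at 20 h lay between −0.23 and 0.05. Its sixth, KO LPS 20 h replicate 4, was −2.19, and the change without KO LPS 6 h replicate 1 was −0.92 ± 0.90 (adjusted p = 0.536), against 0.19 with all arrays. Il12b, a subunit of interleukin 12, was not well above background on any 20 h array and was at least 2.7-fold lower there without replicate 1 (at least 1.51-fold with all arrays; adjusted p = 0.000667 and 0.00962), a bound set by the lowest signal well above background on each array. Il18 fell by 1.07 ± 0.26, and its groups did not overlap in either setting. Cxcl10 (−2.82 ± 1.25, adjusted p = 0.116), Cxcl1 (−2.65 ± 1.29, adjusted p = 0.157) and Ifng (−2.83 ± 1.58, adjusted p = 0.224) did not pass without replicate 1. Ccl9 and the membrane-bound chemokine Cx3cl1 fell in both settings, by 1.55 ± 0.42 and 1.32 ± 0.46 without replicate 1.

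Of 33 genes of the Toll-like receptor and NF-kB pathway, 3 fell with all arrays and 11 without replicate 1 (median −0.45 and −0.85), and 0 rose. The share of all genes that fell was 8.33% and 9.0%, so the count with all arrays was near it. The TRIF adaptor gene Ticam1 fell by 0.90 ± 0.28, and by 1.29 ± 0.25 without replicate 1. The kinase gene Irak4 fell by 0.91 ± 0.29, and by 1.12 ± 0.31. The LPS co-receptor Cd14 did not pass, at 6.76, 6.79 and 6.70 in replicates 2 to 4 at 6 h, and between 7.13 and 8.56 in 5 of the 6 arrays at 20 h. Its remaining array, KO LPS 20 h replicate 4, measured 3.0, near the 2.93 of KO LPS 6 h replicate 1. Of 34 immediate early genes and brakes of signalling, 0 changed with all arrays (limma, with 4 at an unadjusted p under 0.05) and 6 fell without replicate 1 (median −0.49 and −1.05).

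Markers of white blood cells were read in the same arrays. Of 18 measured neutrophil markers 0 rose and 0 fell in either setting (limma, with 1 and 1 at an unadjusted p under 0.05). Their summed level was 8.51 to 8.93 in 6 h replicates 2 to 4, 5.0 in replicate 1, 8.38 to 10.15 at 20 h and 1.60 to 3.30 in saline. Much of that sum is Lcn2, the brightest member, which is not particular to neutrophils (median 7.59 in 6 h replicates 2 to 4 and 8.15 at 20 h). The median log2 change of the 18 members was 0.45 with all arrays and −0.72 without replicate 1. The summed level of 17 T and NK cell markers, which follows the brightest members, was 1.95 to 2.58 in 6 h replicates 2 to 4 and 2.65 to 4.15 at 20 h. Of these markers 0 rose and 0 fell with all arrays (limma, with 3 at an unadjusted p under 0.05). Without replicate 1, 0 rose and 1 fell, and the median log2 change was 0.23 with all arrays and −0.10 without it. Their part in the cytokine levels was not tested. In whole liver, fewer cells of a type and less RNA per cell cannot be told apart.

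Acute-phase transcripts stood above the knockout saline range in 26 of 28 members at 6 h and in 23 at 20 h, by the medians of the arrays. Of these 28 members 2 rose and 1 fell with all arrays (median 0.27), and 0 rose and 2 fell without replicate 1 (median −0.30). Hamp2, a hepcidin gene, fell in both settings (by 2.44 ± 0.65, and by 1.93 ± 0.69). The serum amyloid gene Saa1 measured 9.54 to 10.48 at 20 h, and 9.55, 9.78, 10.63 and 10.75 at 6 h, with a change of −0.19 ± 0.77 (adjusted p = 0.901). On 7 of the 10 arrays its signal lay within 10% of the highest signal of the array, as did Alb on 6 and the fibrinogen gene Fgb on 5. A change in these brightest genes may read smaller than it was, although none of these spots carried the saturation flag. The lipocalin gene Lcn2, at 7.55, 7.68 and 7.59 in 6 h replicates 2 to 4 and 7.65 to 9.89 at 20 h, did not pass (0.77 ± 1.39, adjusted p = 0.76).

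The secreted lectins Reg3b and Reg3g, known from injured gut and pancreas, were higher at 20 h on every array and did not pass. Reg3b measured 3.68, 2.78, 2.21 and 2.12 at 6 h and 3.82, 5.85 and 7.71 at the lowest, median and highest of 20 h, a change of 3.07 ± 1.63 (adjusted p = 0.214). The groups did not overlap for either gene. In wild type Reg3b rose by 5.14 ± 1.63 (adjusted p = 0.0151).

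In 3 lists of secreted liver proteins outside the positive acute phase, every gene called fell. Of 15 negative acute-phase and carrier proteins 6 fell and 0 rose in both settings (median −0.70 with all arrays). Serpina6, the corticosteroid-binding globulin, measured 6.28, 6.73, 6.94 and 6.64 at 6 h and 2.12, 3.29 and 6.22 at the lowest, median and highest of 20 h. The groups did not overlap, and it fell by 2.93 ± 0.55 (adjusted p = 0.00061). The thyroxine carrier Ttr, the retinol carrier Rbp4 and Igfals, which stabilises circulating insulin-like growth factor, fell by 2.22 ± 0.52, 1.37 ± 0.36 and 2.33 ± 0.56. Of 30 coagulation genes 10 fell with all arrays and 11 without replicate 1, and 0 rose. Prekallikrein, Klkb1, fell by 3.51 ± 0.57 (adjusted p = 0.000159). Of 26 complement genes 8 fell in both settings and 0 rose, among them the terminal components C8a by 1.33 ± 0.27, C8b by 1.08 ± 0.27 and C9 by 1.67 ± 0.46, and Hc, which encodes C5, by 1.16 ± 0.26.

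**Figure D2:**
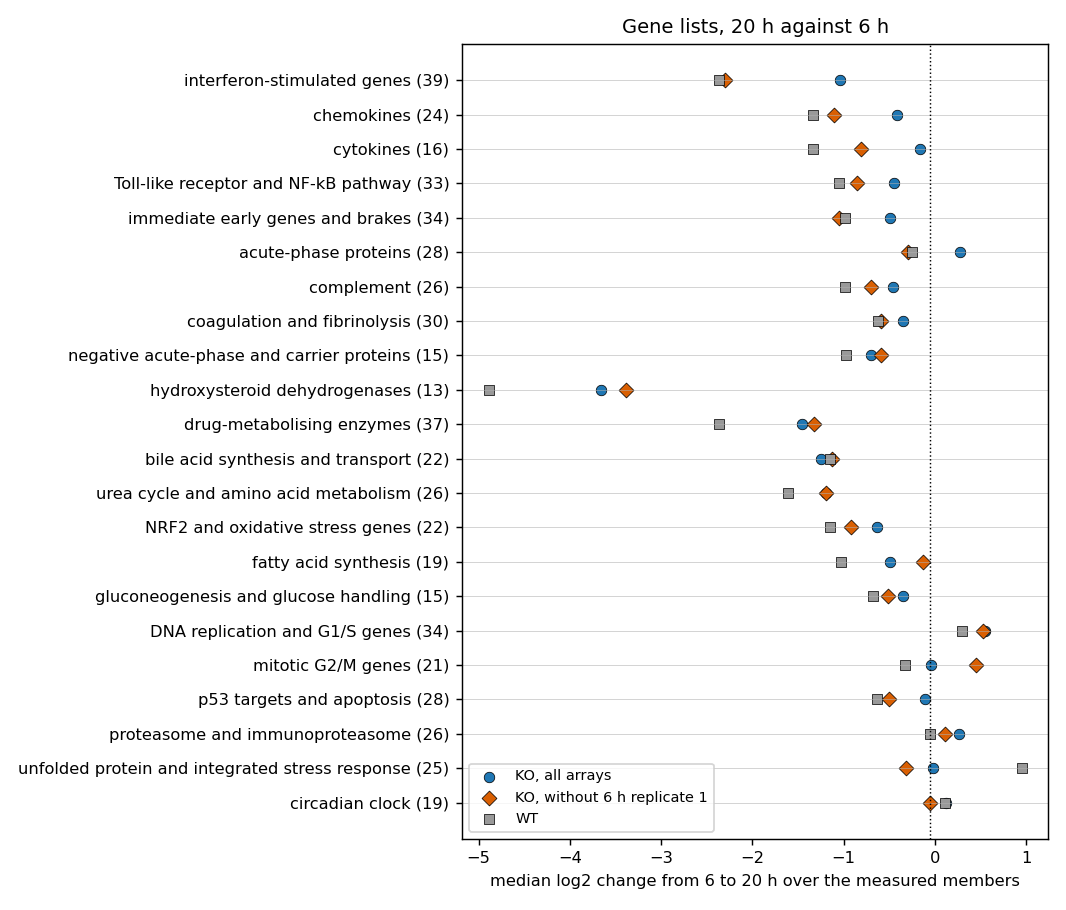
Median log2 change from 6 to 20 h over the measured members of 22 gene lists (number of members in brackets) for knockouts with all arrays, knockouts without KO LPS 6 h replicate 1 and wild type; the dotted line is the median of all genes in knockouts. The hydroxysteroid dehydrogenases lie farthest to the left (−3.66, −3.39 and −4.89), and the unfolded protein response lies at −0.02 and −0.32 in knockouts and at 0.95 in wild type.

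The hydroxysteroid dehydrogenases, which interconvert steroid hormones and bile acid precursors, had the lowest median of the lists plotted. Of 13 members 12 fell and 0 rose in both settings (median −3.66 with all arrays, −3.39 without replicate 1). Hsd3b2 measured 4.90, 3.27, 3.48 and 3.47 at 6 h, and −3.91, −2.87 and 3.68 at the lowest, median and highest of 20 h. The highest 20 h value was replicate 4, which lay inside the 6 h range, and the other 5 arrays were below every 6 h array. Hsd3b2 fell by 5.38 ± 0.92 (adjusted p = 0.000259, 41.7-fold), and by 5.01 ± 1.01 without KO LPS 6 h replicate 1. Hsd3b5, Hsd3b4 and Hsd3b3 fell by 5.52 ± 1.07, 4.68 ± 0.85 and 4.23 ± 0.85, with Hsd3b3 well above background on 2 of 6 arrays at 20 h. Of the other Hsd3b2 probes 1 gave −0.77 and 1 gave −5.04, and the other Hsd3b3 probe gave −1.05. These genes are close paralogs, whose probes may read each other. By their medians all 13 members lay below the saline range at 20 h, and 9 already did at 6 h.

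Of 37 drug-metabolising enzymes 24 fell and 2 rose with all arrays, and 22 fell and 2 rose without replicate 1 (median −1.46 and −1.33). Cyp2a4, a steroid 15-alpha-hydroxylase of the cytochrome P450 family, measured 8.32, 7.35, 7.58 and 8.26 at 6 h and 2.23, 3.62 and 6.10 at the lowest, median and highest of 20 h. Every 20 h array was below every 6 h array, and Cyp2a4 fell by 4.09 ± 0.66 (adjusted p = 0.00015, 17.1-fold). Its near-identical neighbour Cyp2a5 fell by 4.03 ± 0.67. Cyp3a16 fell by 2.94 ± 0.45 and, without replicate 1, by 3.22 ± 0.48. Por, the reductase that supplies electrons to these enzymes, changed by −0.16 ± 0.35 (adjusted p = 0.819). By their medians 24 of the 37 lay within the saline range at 6 h and 28 below it at 20 h, with 18 passing from within to below.

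Of 22 genes of bile acid synthesis and transport 11 fell with all arrays and 13 without replicate 1, and 0 rose (median −1.25 and −1.13). By their medians 10 of the 22 lay below the saline range at 6 h and 18 at 20 h. Abcb11, the bile salt export pump, measured 7.80, 6.75, 6.82 and 7.17 at 6 h and 2.32, 2.94 and 6.85 at the lowest, median and highest of 20 h. Replicate 4 at 20 h again lay inside the 6 h range, and Abcb11 fell by 3.51 ± 0.56 (adjusted p = 0.000141). The hepatic uptake transporters Slco1b2 and Slco1a1 fell by 3.44 ± 0.59 and 2.98 ± 0.46, and the groups of each did not overlap. Cyp7a1, which catalyses the first and limiting step from cholesterol to bile acids, measured 2.98, −7.29, −3.54 and −1.22 at 6 h, against 0.50 to 2.57 in saline. At 20 h 5 arrays lay between −6.59 and −4.25 and replicate 4 was at 0.47. Its change was −2.51 ± 1.39 (limma adjusted p = 0.235), and −0.76 ± 1.32 without KO LPS 6 h replicate 1. The other Cyp7a1 probe gave −2.95 with all arrays and −2.22 without that replicate.

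Of 26 genes of the urea cycle and amino acid metabolism 13 fell and 1 rose with all arrays, and 15 fell and 1 rose without replicate 1 (median −1.19 and −1.20). Cth, Hpd and Prodh, which degrade cystathionine, the tyrosine product 4-hydroxyphenylpyruvate and proline, fell by 2.54 ± 0.50, 2.28 ± 0.54 and 2.25 ± 0.40. Tat, the glucocorticoid-induced tyrosine aminotransferase, did not pass (0.26 ± 0.47, adjusted p = 0.772, and −0.24 without replicate 1).

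Among 22 NRF2 and oxidative stress genes 8 fell and 2 rose with all arrays, and 9 fell and 1 rose without replicate 1. The glutathione transferases Gsta2, Gsta4 and Gsta1 fell by 3.64 ± 0.52, 2.95 ± 0.36 and 2.74 ± 0.52, and catalase, Cat, by 2.46 ± 0.42. The groups did not overlap for any of these 4. Beside these falls, 6 of 9 hepatocyte markers fell with all arrays and 5 without replicate 1. Their summed level was 11.34 to 12.33 in 6 h replicates 2 to 4, 11.75 in replicate 1, and 10.73, 11.04 and 11.97 at the lowest, median and highest of 20 h. Their part in the falls was not tested.

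Lipid and glucose genes moved in both directions. In fatty acid synthesis (19 genes) 6 fell and 1 rose with all arrays, and 4 fell and 2 rose without replicate 1. Elovl6, which elongates palmitate, measured 3.88, 4.31, 3.87 and 4.35 at 6 h and −1.56, 0.25 and 2.01 at the lowest, median and highest of 20 h. The groups did not overlap, and Elovl6 fell by 3.87 ± 0.45 (adjusted p = 7.15e-06, 14.6-fold). Scd2, a desaturase, rose by 2.39 ± 0.55, and by 3.18 ± 0.50 without replicate 1, where only 2 of the 4 arrays at 6 h were well above background.

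Pdk4, the kinase that shuts pyruvate out of oxidation during fasting, measured −1.26, −0.31, −0.61 and −1.33 at 6 h. At 20 h its lowest value was −0.49 (replicate 4), the median 4.92 and the highest 7.18. It rose by 4.93 ± 1.02 (adjusted p = 0.00148, 30.6-fold), with only replicate 4 inside the 6 h range. G6pc, the last step of glucose release, rose by 3.47 ± 0.84 (adjusted p = 0.0054), and by 4.14 ± 0.88 without replicate 1. The glucose transporter Slc2a2 and glycogen synthase, Gys2, fell by 3.79 ± 0.59 and 2.28 ± 0.32. The lipid droplet protein Adfp rose by 1.54 ± 0.35 and the fatty acid carrier Fabp1 fell by 1.87 ± 0.48. Of 24 genes of cholesterol synthesis 2 fell with all arrays and 0 without replicate 1 (limma, with 4 at an unadjusted p under 0.05).

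The genes that changed in both settings were also placed against the saline range, by the medians of 6 h replicates 2 to 4 and of the 20 h arrays. Because the genes were chosen by the same arrays, a low 6 h level among those that rose is favoured by the choice. Of the 1226 that rose, 818 lay below the saline range at 6 h, and 325 of these were within it at 20 h. Another 311 went from within the range to above it. Of the 1258 that fell, 1026 lay below the saline range at 20 h and 511 went from within the range to below it. Among all 19226 genes 5045 lay above and 5949 below that range at 6 h, and 4925 above and 5645 below it at 20 h.

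Cda, which deaminates cytidine, measured −0.40, −2.38, −3.13 and −2.45 at 6 h and 0.63, 1.57 and 3.19 at the lowest, median and highest of 20 h. Every 20 h array was above every 6 h array and above the saline range (−0.41 to 0.58). It rose by 3.82 ± 0.53 (adjusted p = 4.34e-05, 14.1-fold), and by 4.38 ± 0.53 without replicate 1 (adjusted p = 8.55e-06). Dact2, a modulator of Wnt and Nodal signalling, measured 2.14, −2.98, −3.60 and −1.76 at 6 h, 0.82 to 2.24 at 20 h and 1.34 to 2.07 in saline. It was low in replicates 2 to 4 alone, and rose by 3.19 ± 0.74 (adjusted p = 0.00363), or by 4.42 ± 0.59 without replicate 1.

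Cldn1, a tight junction protein, had the same layout, with 6 h values of −0.20, −4.49, −5.30 and −3.97 and saline values from −0.08 to 1.55. It rose by 3.43 ± 0.83, and by 4.53 ± 0.77 without replicate 1, with 2 of 4 arrays well above background at 6 h. Rnf144b, Pllp and Cbfa2t3 rose by 3.40 ± 0.87, 3.10 ± 0.59 and 2.67 ± 0.83, and Npal1 by 3.63 ± 1.01. In replicates 2 to 4 at 6 h, all 4 lay below the saline range. Falls were ranked only among genes that passed in both settings and whose groups did not overlap without replicate 1, which leaves out Hsd3b2. Among the first 8 were Aox3, an aldehyde oxidase (by 4.92 ± 0.81), and Upp2, a uridine phosphorylase (by 4.63 ± 0.68). They also held the aldo-keto reductases Akr1c6 and Akr1c20 (by 4.47 ± 0.79 and 4.26 ± 0.76) and the lipid transporter Abca8a (by 4.24 ± 0.55). Upp2 stood above the saline range (1.63 to 2.60) at 6 h, at 3.98 to 5.14, and at −1.56 to 3.27 at 20 h.

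**Figure D3:**
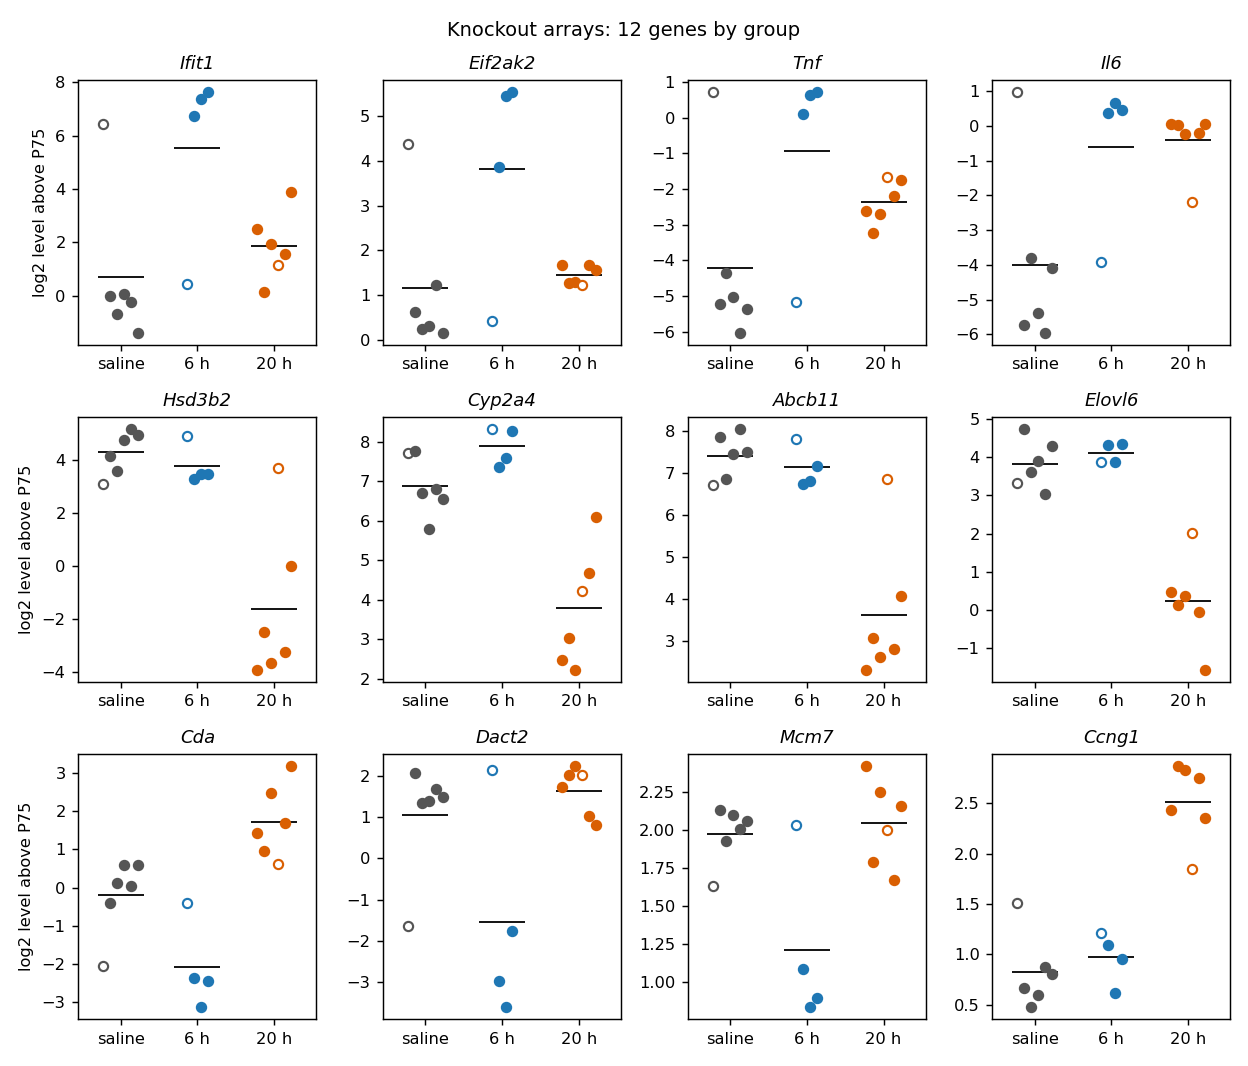
Levels of 12 genes in the knockout arrays by group (vertical axis: log2 signal above the 75th percentile of the array; bars: means over all arrays of a group, n = 6 saline, 4 at 6 h and 6 at 20 h; open circles: KO saline replicate 1, KO LPS 6 h replicate 1 and KO LPS 20 h replicate 4). For Tnf, Il6 and Mcm7 the open circle at 6 h lies within the range of the filled saline points, and for Hsd3b2 the open circle at 20 h does (3.68).

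Genes of DNA replication, the best known targets of E2F factors, moved upward more often than downward in the knockout, as in wild type. Of 34 members 9 rose and 4 fell with all arrays, and 11 rose and 4 fell without replicate 1 (median 0.55 and 0.53). In wild type 12 rose and 4 fell (median 0.3). The share of all genes that rose in knockouts was 7.23% with all arrays and 9.95% without replicate 1. The members that rose include subunits of the MCM helicase. Mcm7 measured 2.03, 1.09, 0.84 and 0.90 at 6 h and 1.67, 2.08 and 2.42 at the lowest, median and highest of 20 h, against 1.93 to 2.13 in saline. The 20 h median and 6 h replicate 1 lay within the saline range, and 6 h replicates 2 to 4 lay below it. It rose by 0.83 ± 0.21 (adjusted p = 0.00728), and by 1.11 ± 0.20 without replicate 1 (adjusted p = 0.000298). Mcm2, Mcm3 and Mcm5 rose by 1.14 ± 0.40, 1.09 ± 0.30 and 0.97 ± 0.29.

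The licensing factor Cdt1 measured 1.95, −0.86, −0.59 and −0.09 at 6 h and 1.05 to 2.18 at 20 h. It rose by 1.32 ± 0.41 (adjusted p = 0.0296), and by 1.93 ± 0.36 without replicate 1 (adjusted p = 0.000509). Gins2, a subunit of the replicative helicase complex, rose by 1.39 ± 0.25 (adjusted p = 0.000428) and its groups did not overlap. Tk1, which salvages thymidine, and Mcm10 fell by 2.93 ± 0.57 and 2.34 ± 0.56, with KO LPS 20 h replicate 4 inside the 6 h range for each. By their medians 17 of the 34 members lay below the saline range at 6 h and 6 at 20 h. Of 21 mitotic genes 1 rose and 1 fell with all arrays, and 3 rose and 0 fell without replicate 1. Of 13 genes of the E2F and retinoblastoma family 1, the repressor E2f7, rose, and it was not well above background on any 6 h array (at least 1.58-fold, adjusted p = 0.00301).

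Of 28 p53 targets and apoptosis genes 6 rose and 2 fell with all arrays, and 5 rose and 5 fell without replicate 1. Ccng1, cyclin G1, measured 1.21, 1.09, 0.62 and 0.96 at 6 h and 1.85, 2.59 and 2.87 at the lowest, median and highest of 20 h. Every 20 h array was above every 6 h array and above the saline range (0.48 to 0.88). Ccng1 rose by 1.54 ± 0.24 (adjusted p = 0.000109), while its other probe gave 0.36. Phlda3, which restrains Akt, rose by 2.45 ± 0.51 (adjusted p = 0.00157) and Sesn1 by 1.62 ± 0.50. The caspase-8 inhibitor Cflar fell by 2.0 ± 0.37 (adjusted p = 0.000568), although its 5 other probes gave values from −1.94 to 1.15.

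Genes of the unfolded protein and integrated stress response restore protein folding in the endoplasmic reticulum. Of 25 members 1 rose and 0 fell with all arrays (median −0.02), and 3 rose and 2 fell without replicate 1 (median −0.32), a share near the 18.9% of all genes. In wild type 15 rose and 0 fell (median 0.95, against −0.08 over all genes). Sdf2l1, an endoplasmic reticulum chaperone partner, measured 2.21, 4.05, 4.04 and 4.42 at 6 h and 2.73, 3.44 and 4.60 at the lowest, median and highest of 20 h in the knockout. Those groups overlapped. Sdf2l1 changed by −0.13 ± 0.46 in knockouts (adjusted p = 0.89) and rose by 3.04 ± 0.46 in wild type, a difference of −3.16 between the courses (adjusted p = 0.0289), or −3.65 without replicate 1 (adjusted p = 0.00648). This difference did not pass with slide as a block, nor without 6 h replicates 1 and 3.

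Ddit3, the stress factor CHOP, changed by 0.49 ± 0.49 in knockouts and rose by 3.05 ± 0.49 in wild type, a difference of −2.56 (adjusted p = 0.101), and of −3.17 without replicate 1 (adjusted p = 0.0199). For the other 23 members the difference between the courses did not pass in either setting. The chaperone Hspa5 changed by −0.35 ± 0.40 in knockouts and rose by 1.01 ± 0.40 in wild type, and its difference of −1.36 did not pass (adjusted p = 0.392). Without replicate 1 the co-chaperone Dnajb9 fell by 2.10 ± 0.52 (adjusted p = 0.0051) and Trib3 rose by 1.41 ± 0.35 (adjusted p = 0.00554). By their medians 14 members lay above the knockout saline range at 6 h and 7 at 20 h.

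**Figure D4:**
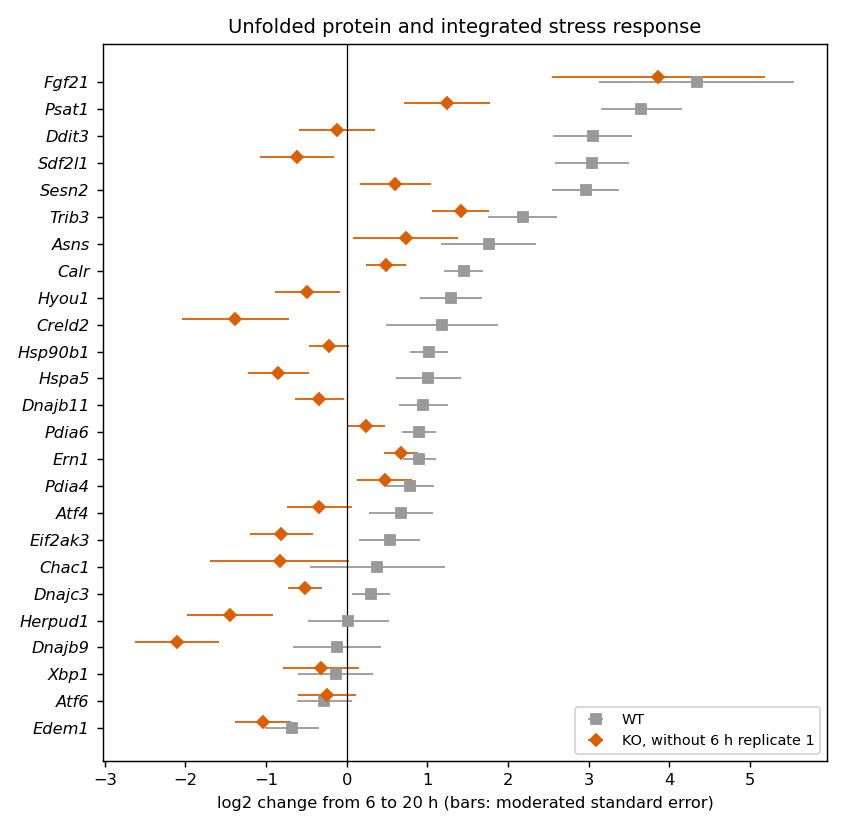
Log2 change from 6 to 20 h of the 25 measured unfolded protein and integrated stress response genes in wild type and in knockouts without KO LPS 6 h replicate 1, ordered by the wild-type change (bars: moderated SE). At the top Fgf21 lies far to the right in both, while Sdf2l1 (3.04 in wild type, −0.62 in knockouts) and Ddit3 (3.05 and −0.12) lie apart.

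Of 19 circadian clock genes 1 rose and 1 fell with all arrays, and 1 rose without replicate 1. Among all genes 7.23% rose and 8.33% fell with all arrays. Arntl, which encodes BMAL1, measured −2.02, −0.27, −0.64 and −0.78 at 6 h and 0.79 to 2.50 at 20 h, and rose by 2.42 ± 0.61 (adjusted p = 0.0071), or 2.06 ± 0.66 without replicate 1. Dbp, an output gene of the clock, measured 6.68, 2.61, 2.30 and 2.64 at 6 h and −0.17 to 1.05 at 20 h. It fell by 2.99 ± 0.85 with all arrays (adjusted p = 0.0168), and changed by −1.94 ± 0.82 without replicate 1 (adjusted p = 0.0999). The sources used here do not give the hour of collection, which cannot be told apart from the time after LPS.

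Markers of resident cells of the sinusoid were read beside the shares of all genes, of which 7.23% rose and 8.33% fell with all arrays. Without replicate 1 these shares were 9.95% and 9.0%. Of 18 Kupffer cell and macrophage markers 5 fell and 1 rose with all arrays, and 4 fell without replicate 1. Vsig4, the complement receptor of Kupffer cells, fell by 2.62 ± 0.66, and the lectin Clec4f, found on Kupffer cells, by 1.87 ± 0.34. Clec4f measured 3.32, 2.80, 3.0 and 3.14 at 6 h and 0.27 to 2.49 at 20 h, with no overlap. Marco, a scavenger receptor, did not pass (1.14 ± 0.76, adjusted p = 0.341). Of 17 stellate cell markers 6 fell and 1 rose with all arrays, and 5 fell and 1 rose without replicate 1. The collectins Colec10 and Colec11 led the falls (by 2.94 ± 0.49 and 2.94 ± 0.50). Of 18 sinusoidal endothelial markers 2 fell and 0 rose with all arrays, and 2 fell and 1 rose without replicate 1 (median 0.10 in both). The endothelial lectin Clec4g fell by 3.43 ± 0.66, while its other probe gave −1.24. The summed level of the Kupffer list was 6.81 to 7.19 in 6 h replicates 2 to 4 and 5.59 to 8.71 at 20 h, and that of the stellate list 7.23 to 7.88 and 6.98 to 7.68. By their medians 12 of 18 Kupffer, 13 of 18 endothelial and 13 of 17 stellate markers lay below the saline range at 20 h. At 6 h it was 10, 14 and 6. Among all 19226 genes 5949 lay below that range at 6 h and 5645 at 20 h.

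The course in knockouts was last set against that in wild type, gene by gene. In wild type 6578 genes changed (34.2%), more than in knockouts in either setting, but a count past a threshold depends on the spread of each group and is no test of a difference. The difference between the courses passed for 63 genes with all arrays (0.328%; 9 higher in knockouts, 0.0468%, and 54 lower, 0.281%) and for 53 without KO LPS 6 h replicate 1 (0.276%; 4 higher, 0.0208%, and 49 lower, 0.255%). In both settings 37 genes passed. The count was not stable to the libraries at 6 h: it was 0 without replicates 1 and 3 (1426 genes at an unadjusted p under 0.05, limma), 7 without replicates 1 and 4, and 38 without replicates 1 and 2. With slide as a block it was 7.

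The genes higher in the knockout course were led by Zfp296, a zinc finger protein. It measured −1.70, −0.87, −0.33 and −0.14 at 6 h and −2.42, −2.08 and −0.95 at the lowest, median and highest of 20 h. It fell by 1.21 ± 0.35 in knockouts and by 3.73 ± 0.35 in wild type, a difference of 2.52 (adjusted p = 0.0199). Cited2, a CBP and p300 interacting transcription regulator, changed by 1.14 ± 0.51 in knockouts and fell by 2.35 ± 0.51 in wild type (difference 3.49, adjusted p = 0.0301). Zfp710 changed by 0.15 ± 0.19 and fell by 1.14 ± 0.19 in wild type (difference 1.30, adjusted p = 0.0301).

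Of the genes lower in the knockout course that passed in both settings, the 6 with the smallest p are given, clone names left out. Tmem199, a factor of vacuolar proton pump assembly, measured −0.07, −0.37, 0.22 and 0.01 at 6 h and −0.61 to 0.39 at 20 h, with overlapping groups. It changed by 0.06 ± 0.20 in knockouts and rose by 2.0 ± 0.20 in wild type (difference −1.94, adjusted p = 0.00219). Ints6, a subunit of the Integrator complex, differed by −1.78, Rab40c by −1.32, Ankzf1 by −1.83, Mfsd11 by −2.11 and Ccdc134 by −3.27 (adjusted p = 0.00884 to 0.012). All 9 of these genes were chosen among those that passed both with and without KO LPS 6 h replicate 1. With slide as a block only Ankzf1 passed, and with slide as a block and that replicate left out only Ints6 and Ccdc134 did. The other Ankzf1 probes gave −0.27 and 0.85 in the knockout course with all arrays, against −0.18 for the probe used. Among the replication genes Cdc45l, a helicase cofactor, differed by −2.29 (adjusted p = 0.0332), with 1 of 4 and 2 of 6 knockout arrays well above background. Its change was −0.90 ± 0.34 in knockouts and 1.38 ± 0.34 in wild type, and the difference did not pass with slide as a block.

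**Figure D5:**
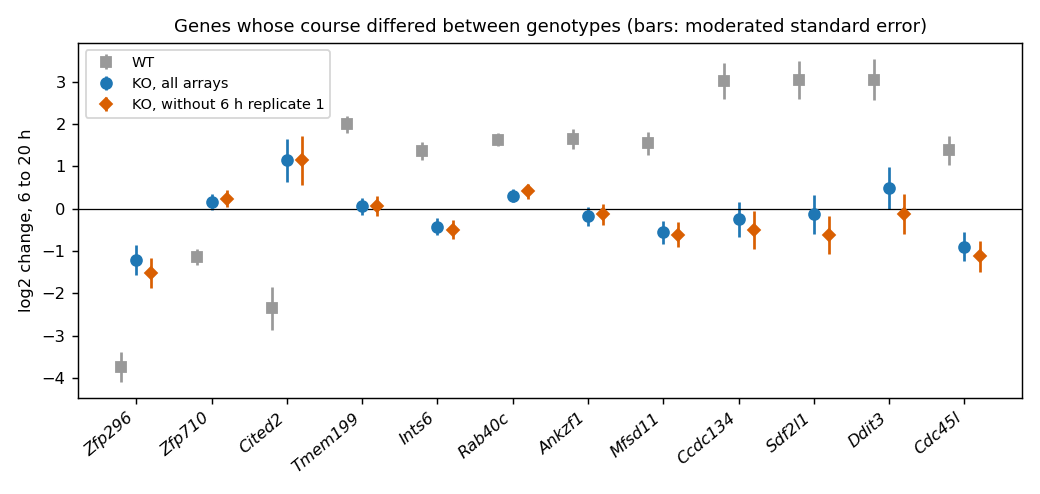
Log2 change from 6 to 20 h in wild type, in knockouts with all arrays and in knockouts without KO LPS 6 h replicate 1 for 12 genes whose difference between the courses passed in at least 1 setting (bars: moderated SE). Zfp296, Zfp710 and Cited2 lie higher in knockouts, and the other 9 lie above 1 in wild type and below 1 in knockouts.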

How the data were processed

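Liver RNA of 32 mice had been labelled with Cy3 and hybridised to 1-colour Agilent arrays of 43379 spots on 9 slides, read with Agilent Feature Extraction 10.7.1.1 per the file headers. The deposited intensity is the processed signal of each spot, background-subtracted by the authors' scanner software, and the deposited processed table holds log2 values whose centring is not stated.

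Levels here are log2 processed signals from which each array's 75th percentile was subtracted, with control and outlier spots left out. Spots of a probe were averaged, probes kept where 4 or more arrays read them well above background (28373 of 41174), and the brightest probe taken per gene name (19226 genes, of which 13255 carry a current RefSeq symbol). Changes were fitted with limma 3.58.1 (R 4.3.3) as 6 group means over all 32 arrays, which share 1 estimate of the spread, and called at a Benjamini-Hochberg adjusted p under 0.05. The fit was tested on simulated data. The precision is limited by the number of arrays.

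The members and gene lists (40 lists, 767 of 806 genes measured) were chosen with earlier results of these data known. The text names E2f1 and 9 fixed genes (Alb, Cyp7a1, Ifng, Cxcl10, Cxcl1, Il1b, Il6, Tnf and Saa1). It also names 8 ranked rises and 8 ranked falls, up to 4 called members of a list with its brightest uncalled one, and at most 6 genes of smallest p per sign of the difference. Ranked genes, called members and genes of the difference had to pass both with and without KO LPS 6 h replicate 1. Ranking was by the change without that replicate, among genes whose groups did not overlap without it. Dim probes and clone names were left out of the ranking. Ifit3, Rsad2, Cxcl9, Irf7, Mcm3, Mcm5, Mcm7, Gins2, Cdc45l, Sdf2l1, Ddit3, Dnajb9, Trib3, Fgf21, Dbp and Reg3g were chosen after their values were seen. Some named genes are not reported here. Alternatives were other normalizations, filters, blocks, array weights, thresholds and left-out arrays.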

Additional observations from a re-analysis of the deposited data

Results flagged for a closer look

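Among 266 series of 4 or 6 arrays tested, 42 had a single array far from the others of its group by Dixon's criterion, which chance meets in about 1 of 20 groups. The array was KO LPS 6 h replicate 1 in 21 series, KO LPS 20 h replicate 4 in 13 and KO LPS 20 h replicate 6 in 8. The part of library identity in them was not tested.

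KO LPS 6 h replicate 1 was far below the other 3 in genes induced by LPS: Ifit1 0.42, Ifit3 2.41, Ddx58 0.17, Cxcl9 3.33, Irf7 0.16, Tnf −5.16, Il1b −1.35, Il6 −3.93, Cd14 2.93 and Lcn2 4.35 (log2 above the 75th percentile). It was also low in Tat (6.60), Hspa5 (6.32), Dnajb9 (2.01), Sntg2 (0.27), the 6 h response score (0.13) and the 20 h response score (0.12). It was far above them in Hsd3b2 (4.90), Hsd3b4 (5.66), Hsd3b5 (5.27), Slc2a2 (5.55) and the clock output gene Dbp (6.68).

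KO LPS 20 h replicate 4 was far below the other 5 in Iigp1 (7.10), Il6 (−2.19), Cd14 (3.0), Por (6.21), Tat (6.24), Dnajb9 (1.96), Trib3 (0.21), Psat1 (−2.06) and the 20 h response score (0.36). It was far above them in F8 (−0.97), Igfals (2.77), Cyp7a1 (0.47) and Clec4g (2.25). KO LPS 20 h replicate 6 was highest in Lcn2 (9.89), Cyp2c55 (−1.95), Hspa5 (8.48) and Zfp296 (−0.95), and lowest in Gins2 (−2.55), E2f7 (−4.85), Cldn1 (−1.25) and Ccdc134 (−1.43).

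The course differed between genotypes, by its own test in limma, for 11 of the genes named with all arrays. The differences (knockout minus wild type, log2) were Cdc45l −2.29, Sdf2l1 −3.16, Zfp296 2.52, Zfp710 1.30, Cited2 3.49, Tmem199 −1.94, Ints6 −1.78, Rab40c −1.32, Ankzf1 −1.83, Mfsd11 −2.11 and Ccdc134 −3.27. For Ddit3 the difference was −2.56 with all arrays (adjusted p = 0.101) and passed without KO LPS 6 h replicate 1 (−3.17, adjusted p = 0.0199).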

How the results depend on the processing

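The course with all arrays had 2992 genes called. Leaving out 1 array of the course gave 1802 to 4009; the calls dropped most without KO LPS 6 h replicate 4 (1802) and replicate 3 (1866), and rose without KO LPS 20 h replicate 4 (4009). Leaving out KO LPS 6 h replicate 1 together with another 6 h array gave 2076 to 2830. Counts further away were 1800, 1862 and 0 within the scan dates, 4820 with scan date as a block and without KO LPS 6 h replicate 1, 312 with only the 10 arrays fitted (1708 without that replicate, with fewer arrays to estimate the spread), 7096 with array weights, 1379 at an adjusted p under 0.01, and 5100 without KO LPS 6 h replicate 1, KO LPS 20 h replicate 4 and KO saline replicate 1, chosen after seeing the data. The share of calls that were higher was 46.5% as reported, 59.3% in the deposited table, 55.8% after normexp and 54.9% after quantile normalization. Without a filter on dim probes the median of all genes was −0.20. The cause of these moves was not tested.

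The difference between the courses (63 genes) ranged from 0 to 93 over the left-out arrays: 25 without KO LPS 6 h replicate 4, 36 without replicate 2, 30 and 35 without KO LPS 20 h replicates 3 and 6, and 93 without KO LPS 20 h replicate 4. It was 7 with slide as a block (8 without KO LPS 6 h replicate 1), 115 with scan date as a block, 3, 6 and 0 within the scan dates (1397 genes at an unadjusted p under 0.05 in the last, limma), 95 after quantile normalization, 97 after normexp, 21 with median centring, 14 with no filter, 2 with only the LPS arrays (24 without that replicate), 560 with array weights, 5 at an adjusted p under 0.01 and 129 without the 3 arrays. Of the 63 genes, 61 were called after quantile normalization and 21 with median centring.

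Same-numbered arrays of the 2 groups did not deviate together (r = −0.12, −0.08, 0.02 and −0.11). With the replicate block the course had 2375 calls (3237 without KO LPS 6 h replicate 1) and the difference 28 (30).

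Among the named genes called in either of the fits compared, signs turned only within scan dates. Uncalled genes also turned without KO LPS 6 h replicate 1, such as Irf7 (0.49 to −0.71) and Ddit3 (0.49 to −0.12). In the third date, where KO LPS 6 h replicate 1 is the only 6 h array, they were Ifit1 1.59, Eif2ak2 1.01, Ccl9 0.02, Il12b 0.13, Vegfa 0.38, Zfp296 0.01, Cldn1 −0.27, Dact2 −0.72, Cdt1 −0.77, Mcm2 −0.58, Mcm5 −0.48, Mcm7 −0.06, Bub1b −0.11, Sesn1 −0.05 and H2-DMa −0.13. In the second it was Irf7 (−1.35, adjusted p = 0.0478, range over its settings 0.0478 to 0.94). Of 106 named genes called with all arrays, 91 were called with the slide block, 105 with the scan date block and 28 with only the 10 arrays. Without KO LPS 6 h replicate 1 it was 104, a number favoured by the choice of genes called in both fits. The position on the wild-type course stayed 0.551 to 0.645 apart with 1 array left out. Dim probes limit Hsd3b3, Akr1d1, Cyp2c55, Npal1 and Cdc45l, which stood well above background on part of the arrays.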

Other observations

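Other lists gave few calls. Of 26 proteasome genes 3 rose and 0 fell in both settings: the base subunits Psmc1 and Psmc4 (0.75 and 0.80 log2 with all arrays) and the lid subunit Psmd11 (0.55). The share of all genes that rose was 7.23% with all arrays and 9.95% without KO LPS 6 h replicate 1. By the medians of the arrays 17 of the 26 lay above the knockout saline range at 6 h and 23 at 20 h. Of 12 genes of MHC class I presentation 0 changed with either set of arrays (limma, with 0 and 1 at an unadjusted p under 0.05), and 10 lay above the saline range at 20 h. Of 19 angiogenesis and hypoxia genes 4 fell with all arrays and 3 without KO LPS 6 h replicate 1, among them Vegfa, the vascular growth factor (−0.97 and −1.21), and the kinase Pdk1 (−2.77 and −2.37). The other Pdk1 probe gave only −0.74 and −0.33. Of 11 class II and dendritic cell markers 1 rose and 1 fell in each setting.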
